A study of Homo sapiens with 30 samples.

Results

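The genes described here are GPC5, AUTS2, TENM3, ROBO1 and PTPRD, 5 of the 20033 protein-coding genes placed on chromosomes 1 to 22, X and Y. All are longer than 500 kb, a length that 315 protein-coding genes reach. They were selected on measured values: among all protein-coding genes they had the largest excess of regions open in posterior over regions open in anterior neural ectoderm on day 2, when each region was assigned to the nearest gene end. That excess is therefore a description of the choice and is not tested. What follows gives the same regions inside the gene bodies, their state in the lists that the choice did not use, and both measures in genes of like length and at equal list size.

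OmniATAC-seq, which uses Tn5 transposase to cut and tag open DNA, had been applied to the wild-type human embryonic stem cell line H1. The 30 libraries of 50000 cells each form 10 groups of 3 biological replicates, and every group comes from this 1 line. Undifferentiated cells (hPSC, day 0) were turned into definitive ectoderm (DE, day 1) by blocking TGF-beta, BMP, MEK and WNT secretion with A8301, LDN193189, Trametinib and C59. DE was then replated in A8301, LDN193189 and Thiazovivin. Anterior neural ectoderm (aNE, day 2) was made with 1 µM C59 added. Posterior neural ectoderm (pNE, day 2) instead had 50 nM of the retinoic acid receptor agonist TTNPB. It also had 20 ng/mL FGF2 and 1 µM of the tankyrase inhibitor XAV939. Telencephalon, midbrain or hindbrain medium was applied to each until day 4, and the resulting groups carry the suffixes T, M and H (aNE_T, pNE_T and so on). The full make-up of these media was not used here. Plating density differed with the origin of the day 4 cells, at 75000 cells per square cm for aNE and 150000 for pNE.

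Each group is represented by a single list of peak positions without scores, and how its 3 replicates were combined is not stated. No value below therefore has a replicate error, the comparisons are between lists rather than conditions. Depth in reads is not known. Peak numbers on the main chromosomes run from 167792 in aNE to 313095 in pNE_H. The pNE list, with 206811, is longer than the aNE list, and a longer list offers more chances of a region that is open in it alone. Values are for this reason also given at equal list size, where each list is cut to its widest 167792 peaks. The aNE list, the shortest, stays whole there. Of 23 marker genes of pluripotent, neural, anterior, posterior and other cells, 17 had a peak within 1 kb of a gene end in all 10 lists. The marker ends thus do not separate most of the lists. POU5F1, a pluripotency factor, had a peak in hPSC and DE only, but NANOG and TDGF1 of the same set had one in all 10. DPPA4, also of that set, lacked one in aNE_M and pNE_M. TFAP2B, a neural crest factor, had a peak only in pNE_H, the longest list, while SOX10 of the same set had one in all 10. OTX2 lacked one in pNE_M, and the surface ectoderm markers TP63 and KRT5 also varied between lists.

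TENM3, ROBO1, PTPRD and AUTS2 are known for roles in the developing nervous system. GPC5 is a glypican, a heparan sulfate proteoglycan held at the cell surface by a lipid anchor. TENM3 is a teneurin, a transmembrane adhesion protein that guides the matching of neurons into circuits. ROBO1 is a receptor for the SLIT guidance cues that repel growing axons, and PTPRD is a LAR-type receptor tyrosine phosphatase that organizes presynaptic terminals. AUTS2 is a nuclear protein that joins variant Polycomb complexes, and changes in the gene are linked to neurodevelopmental disorders. An open region away from a gene end can be an enhancer, an insulator or another kind of site, and peak positions alone do not tell these apart.

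Sequence is shown for the windows before annotated transcription starts, since most of these stand open throughout and 1 does not. RefSeq (GRCh38.p14) lists 9 promoter windows for the 5 genes, each running from 250 bases before a start to 50 after it, and 8 of the 9 had a peak in all 10 lists. The exception is an internal PTPRD start (chr9:8779342-8779641, minus strand), which had a peak in hPSC, aNE, pNE, aNE_M, aNE_H and pNE_M and none in DE, aNE_T, pNE_T and pNE_H. The widest peak there measured between 114 and 204 bp, against 1012 to 1471 bp at the outermost PTPRD start (chr9:10612953-10613252) in the 10 lists. Peaks at the internal start covered only part of the 300 bases of the window, from 9 in aNE_M to 75 in pNE. Those of hPSC and aNE covered 17 and 18. Those of aNE_H and pNE_M were not kept at equal list size, so the state there rests on narrow, partial overlaps. GC content was 45.3% with 4 CpG at the internal start and 75.3% with 40 CpG at the outermost one. The GPC5 window (chr13:91398371-91398670, plus strand) had 65.0% GC and 33 CpG. The 250 bases before each of these starts are printed 5′ to 3′ on the strand of the gene, with the bases under a pNE peak in capitals.
PTPRD internal, chr9:8779392-8779641: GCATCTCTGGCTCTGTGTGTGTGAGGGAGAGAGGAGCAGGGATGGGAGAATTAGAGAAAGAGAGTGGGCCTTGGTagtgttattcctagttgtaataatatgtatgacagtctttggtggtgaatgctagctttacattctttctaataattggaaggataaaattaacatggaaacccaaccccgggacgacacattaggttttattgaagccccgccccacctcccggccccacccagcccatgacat
PTPRD outermost, chr9:10613003-10613252: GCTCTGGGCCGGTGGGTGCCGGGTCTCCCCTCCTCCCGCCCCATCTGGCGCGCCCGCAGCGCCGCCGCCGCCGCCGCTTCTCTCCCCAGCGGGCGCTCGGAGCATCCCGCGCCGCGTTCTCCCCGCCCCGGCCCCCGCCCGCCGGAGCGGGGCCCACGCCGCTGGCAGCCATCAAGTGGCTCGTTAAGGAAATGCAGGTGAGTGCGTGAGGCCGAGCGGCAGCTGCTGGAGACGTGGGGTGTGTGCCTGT
GPC5, chr13:91398371-91398620: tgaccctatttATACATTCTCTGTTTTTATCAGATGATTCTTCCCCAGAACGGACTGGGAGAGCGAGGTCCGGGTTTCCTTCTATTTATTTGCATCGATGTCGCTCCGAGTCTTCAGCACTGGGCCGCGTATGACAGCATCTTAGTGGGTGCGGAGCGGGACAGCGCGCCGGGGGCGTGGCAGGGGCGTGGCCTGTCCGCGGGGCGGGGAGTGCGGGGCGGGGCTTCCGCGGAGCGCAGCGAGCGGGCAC
The pNE peak covers 75 of the 250 bases at the internal PTPRD start, all 250 at the outermost one and 239 at GPC5. The AGGTCA half-site of retinoic acid receptors, searched on both strands, was in 0 of the 9 windows and in 13.8% of all 35116 RefSeq promoter windows. A pair of these half-sites in direct repeat with 5 bases between them was in 2 of the 35116 windows and in none of the 9. These are matches of letters in short windows only, and the regions inside the gene bodies were not searched.

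GPC5 spans chr13:91398621-92867237 on GRCh38, 1.47 Mb on the plus strand. Peaks of the 10 lists merged into 189 regions there, where a region is open in a list with at least 1 peak in it. On day 2, 36 regions were open in pNE and had no peak in aNE (pNE-only). The reverse state (aNE-only) was found in 4, and 31 were open in both. The pNE-only share of the exclusive regions was 90% (Wilson 95% interval 76.9% to 96.0%), the highest of the 5. Such intervals cover the counting of regions alone.

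AUTS2 (chr7:69598475-70793506, plus strand, 1.20 Mb) was the most densely marked of the 5, with 346 regions. It had 50 pNE-only, 17 aNE-only and 88 shared regions, and a pNE-only share of 74.6% (63.1% to 83.5%). That share was the lowest of the 5, although the number of pNE-only regions was the highest.

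TENM3 (chr4:181447613-182803024, plus strand, 1.36 Mb) had 287 regions, of which 46 were pNE-only, 13 aNE-only and 68 shared on day 2, a pNE-only share of 78.0% (65.9% to 86.6%). ROBO1 (chr3:78597239-79767998, minus strand, 1.17 Mb) had 193 regions with 33 pNE-only, 7 aNE-only and 34 shared, a share of 82.5% (68.1% to 91.3%). PTPRD is the longest, at 2.30 Mb (chr9:8314246-10613002, minus strand), and held 332 regions with 48 pNE-only, 14 aNE-only and 72 shared, a share of 77.4% (65.6% to 86.0%). The intervals of the 5 genes overlap one another. Together the bodies held 1347 regions, with 213 pNE-only, 55 aNE-only and 293 shared, and 79.5% of the exclusive regions (74.2% to 83.9%) were pNE-only.

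**Figure D1:**
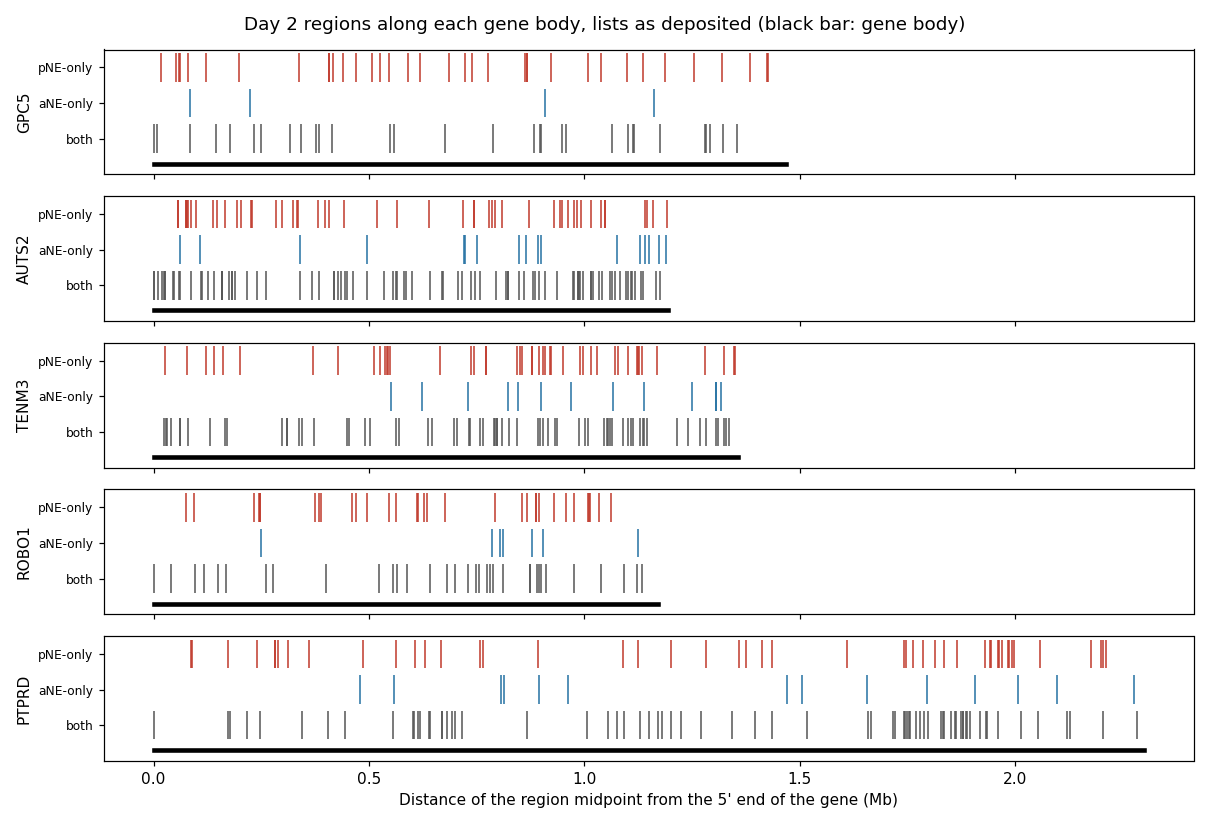
Day 2 regions along the 5 gene bodies, with the distance of each region's midpoint from the 5′ end of the gene in Mb on the horizontal axis; rows of ticks are the regions open in pNE alone, in aNE alone and in both, and the black bar is the gene body. The 213 pNE-only regions are spread along the genes, and GPC5 carries 4 aNE-only ticks against 36 pNE-only ones.

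The pNE-only regions were distributed over the whole length of the genes. Of the 213, 68 lay in the first part of the gene when each body was divided into 3 equal parts from its 5′ end, 61 in the middle part and 84 in the last. PTPRD had 16, 9 and 23 in the same order, and AUTS2 22, 11 and 17. Few touched a gene end. Within 1 kb of an end of any gene lay 7 of the 213 pNE-only and 17 of the 293 shared regions. Whether a region falls in an exon or an intron was not examined.

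The pNE-only peaks were narrower than the shared ones. Their median width in the pNE list was 186 bp, against 338 bp for peaks at shared regions, and aNE-only peaks had a median of 172 bp in the aNE list, against 285 bp at shared regions. Of the 213 pNE-only regions, 133 had a peak wide enough to be kept in pNE at equal list size, where the narrowest peak kept measures 167 bp. The pNE-only regions were open in a median of 5 of the 10 lists and the shared ones in a median of 9. Part of this difference is fixed, since a pNE-only region is absent from aNE by definition. Neither it nor the widths are given here for the other long genes. Of the shared regions, 144 of 293 were open in all 10.

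The broadest pNE-only peaks more than 1 kb from a gene end had different histories, where presence means a peak of that list in the same merged region. In ROBO1 a 700 bp peak (chr3:79140917-79141616) was present in pNE, in all 3 aNE-derived lists, in pNE_M and in pNE_H, and absent from hPSC and DE. A second ROBO1 peak of 355 bp (chr3:79133498-79133852), was present in hPSC and pNE only. In AUTS2 a 626 bp peak (chr7:70406076-70406701) was present in every list except aNE, so its pNE-only state rests on a gap in aNE. The 414 bp AUTS2 peak (chr7:69825213-69825626) and the 401 bp TENM3 peak (chr4:182525646-182526046) had the same pattern of 9 lists.

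The broadest PTPRD peak of this kind, 548 bp (chr9:8401693-8402240), was present in 6 lists, namely pNE, aNE_M, aNE_H and all 3 pNE-derived lists. The next, 473 bp (chr9:8668896-8669368), was present in pNE and in all 6 day 4 lists, and in neither hPSC nor DE. In GPC5 a 449 bp peak (chr13:92716899-92717347), which also lies in the antisense gene GPC5-AS1, was present in pNE, aNE_H and pNE_H. The other GPC5 peak, 366 bp (chr13:91815155-91815520), was present in pNE and in the midbrain and hindbrain lists of both origins, and in no telencephalon list. TENM3 had a 482 bp peak (chr4:182111739-182112220) in 8 lists, absent from aNE and aNE_M.

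The broadest aNE-only peaks were between 303 and 407 bp wide. The GPC5 one (chr13:91483191-91483597) was present in aNE, aNE_T, aNE_M and pNE_T, both telencephalon lists among them. The AUTS2 one (chr7:70726704-70727033) was present in DE, aNE and the 3 aNE-derived lists and in no pNE-derived list. Those of TENM3 (chr4:182293758-182294079), ROBO1 (chr3:78981716-78982032) and PTPRD (chr9:8956959-8957261) were all present in DE as well.

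The day 2 shares of the 5 are set here beside those of genes of like length. Over the 304 genes of at least 500 kb with at least 10 exclusive regions the median pNE-only share was 76.2%, with quartiles at 68.4% and 84.2%. GPC5 ranked 29 of 304, ROBO1 96, TENM3 135, PTPRD 140 and AUTS2 168. A share of at least 75% was found in 4 of the 5 genes, all but AUTS2, and in 54.9% of the length class. More pNE-only than aNE-only regions were found in 5 of 5 and in 97.4% of the class. Since the choice of the genes used this same contrast, nothing is read from these counts.

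Against genes within a factor of 1.5 of its own length, GPC5 had a higher share than the median of 80.5% over 66 genes, and 7 of the 66 were higher still. ROBO1 was above the median of 78.0% over 119 genes. AUTS2, TENM3 and PTPRD were below the medians of their own lengths, which were 78.3% over 114 genes, 80.4% over 81 and 82.9% over 14. The other long genes summed to 2061 aNE-only and 6228 pNE-only regions, a share of 75.1%.

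The number of pNE-only regions also entered the choice of the genes, and its ranks are a description. By the number of pNE-only regions in the body AUTS2 ranked 3 of 304, PTPRD 4, TENM3 6, GPC5 22 and ROBO1 36. Per Mb of body AUTS2 had 41.8 (rank 16), TENM3 33.9 (rank 60), ROBO1 28.2 (rank 113), GPC5 24.5 (rank 162) and PTPRD 20.9 (rank 203). The median of the class was 24.6 per Mb. All 5 ranked lower per Mb than by number.

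At equal list size the excess shrank in all 5. GPC5 then had 19 pNE-only and 8 aNE-only regions (70.4%, 51.5% to 84.1%), ROBO1 20 and 11 (64.5%, 46.9% to 78.9%), AUTS2 37 and 28 (56.9%, 44.8% to 68.2%), and TENM3 and PTPRD 28 and 22 each (56.0%, 42.3% to 68.8%). Together the share was 59.2% (52.6% to 65.4%), against 57.5% in the other long genes and a class median of 60%. A share of at least 75% was then found in 0 of 5 and in 11.7% of the 291 long genes with at least 10 exclusive regions. More pNE-only than aNE-only regions were still found in 5 of 5 and in 73.5% of the class. By this share GPC5 ranked 60 of 291, ROBO1 97, AUTS2 166, and TENM3 and PTPRD 178.

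**Figure D2:**
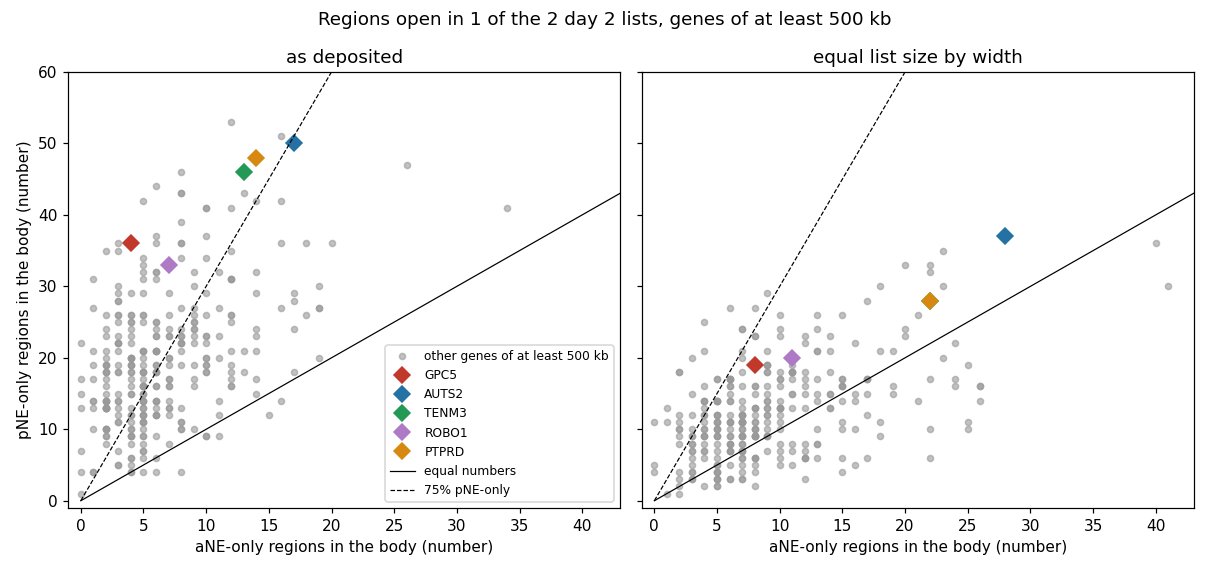
Number of aNE-only regions (horizontal) and pNE-only regions (vertical) in the bodies of protein-coding genes of at least 500 kb, for the lists as deposited on the left and cut to equal size on the right; each grey point is a gene, diamonds are the 5 genes, and the lines mark equal numbers and 75% pNE-only. GPC5 with 4 and 36 stands farthest above the 75% line among the 5 on the left; on the right all 5 lie between the lines, and TENM3 and PTPRD share the point at 22 and 28.

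Long genes with more one-sided exclusive regions than the 5 were present in the class. As deposited, 4 genes had pNE-only regions alone, among them CDH12, a cadherin, with 17 and KCNQ5, a potassium channel, with 15. KCNQ5 with 11 against 0 was also at the top at equal list size, with MGAT4C at 11 against 1. At the other end, as deposited, were LRRC37A2 with 4 pNE-only and 8 aNE-only regions, TMEM117 with 4 and 6, and GPHN, the gene of the inhibitory synapse scaffold gephyrin, with 12 and 15. LRRC37A2 belongs to a duplicated gene family, so its peaks are uncertain. At equal size GALNT17 joined TMEM117 and LRRC37A2 there, with 3 pNE-only and 12 aNE-only regions.

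The assignment to the nearest gene end, by which the 5 were chosen, reaches well beyond the bodies. It gave GPC5 90 pNE-only and 11 aNE-only regions, a difference of 79. The difference was 61 in AUTS2 (87 and 26) and in TENM3 (89 and 28), 58 in ROBO1 (69 and 11) and 55 in PTPRD (73 and 18). The next genes were LOC124900173 with 52, LRRC4C with 51, ERBB4 with 50, and ADGRL2 and TENM2 with 49, so the 5 end at a small step. Of the 408 pNE-only regions so assigned to the 5, 213 lay in the gene bodies and 195 outside.

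For GPC5, 54 of the 90, or 60%, lay outside the body, in a territory of 3.50 Mb around 1.47 Mb of gene. The share outside was 52.2% in ROBO1, 48.3% in TENM3, 42.5% in AUTS2 and 34.2% in PTPRD. Per Mb, AUTS2 had 41.8 pNE-only regions inside the body and 27.9 outside it, and TENM3 33.9 and 21.0. GPC5 had 24.5 inside and 26.5 outside, and ROBO1 and PTPRD also differed little between inside and outside (28.2 and 27.0, 20.9 and 19.3). At equal list size GPC5 and ROBO1 held ranks 1 and 2 by this difference, while AUTS2 fell to rank 15, PTPRD to 74 and TENM3 to 87.

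The regions open in each list show the course over the differentiation. In GPC5 36 were open in hPSC, then 49 in DE, and 35 and 67 in aNE and pNE. Day 4 brought 41, 69 and 73 in aNE_T, aNE_M and aNE_H, against 71, 90 and 123 in the pNE-derived lists in the same order of media. The telencephalon list was the lowest of the 3 in both origins. At equal list size the same 10 lists gave 28, 27, 35, 46, 34, 51, 60, 49, 60 and 64, and the telencephalon list was again the lowest in both origins.

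PTPRD had 86 open in hPSC, then 106 in DE, and 86 and 120 in aNE and pNE. On day 4 it had 100 in aNE_T, 123 in aNE_M, 123 in aNE_H, 138 in pNE_T, 157 in pNE_M and 227 in pNE_H. The 3 pNE-derived lists all lay above the 3 aNE-derived ones. At equal size the values in the same order of lists were 63, 62, 86, 92, 85, 94, 99, 101, 118 and 120, and the origins again did not overlap.

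TENM3 had 105 in hPSC, 124 in DE, 81 in aNE, 114 in pNE, 92 in aNE_T, 112 in aNE_M, 115 in aNE_H, 114 in pNE_T, 125 in pNE_M and 167 in pNE_H. The high value in pNE_H was gone at equal size, where TENM3 had 80 there and between 73 (aNE_T) and 100 (aNE_H) in the other lists. ROBO1 had 61 in hPSC, 46 in DE, 41 in aNE, 67 in pNE, 65 in aNE_T, 79 in aNE_M, 60 in aNE_H, 62 in pNE_T, 69 in pNE_M and 129 in pNE_H. At equal size ROBO1 was lowest in DE, with 30, and highest in pNE_H, with 58.

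AUTS2 took a different course, with 127 in hPSC, 176 in DE, and 105 and 138 in aNE and pNE. On day 4 it had 151 in aNE_T, 164 in aNE_M, 134 in aNE_H, 149 in pNE_T, 127 in pNE_M and 209 in pNE_H. At equal size AUTS2 lay between 93 in hPSC and 125 in aNE_T and aNE_M, with 114 in pNE and 110 in pNE_H. The telencephalon list was thus not the low one for AUTS2.

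**Figure D3:**
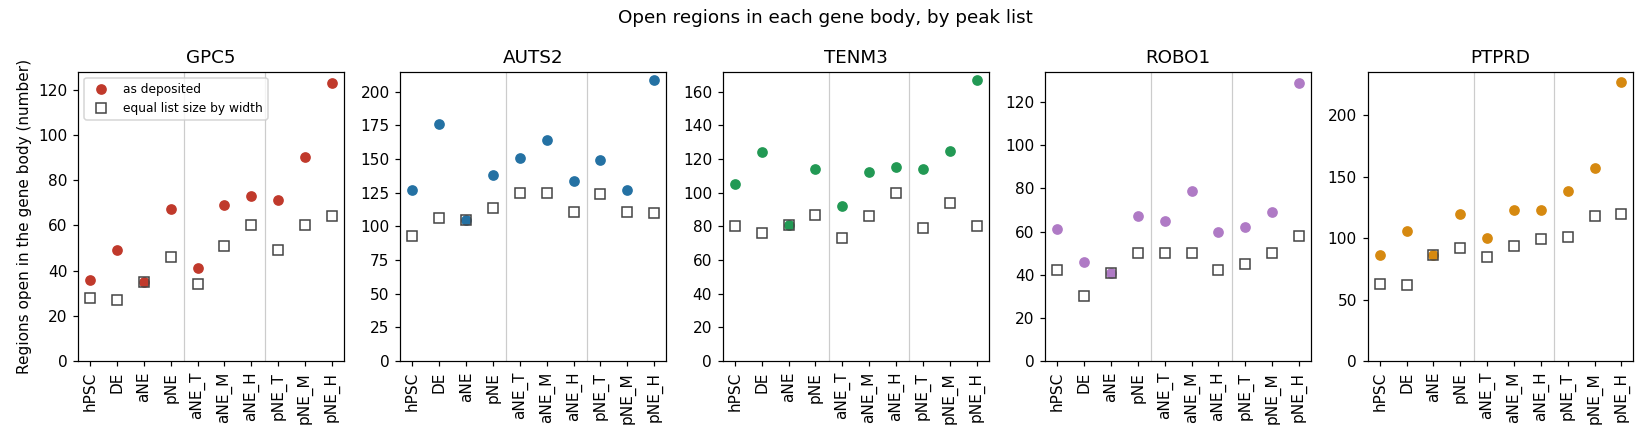
Number of regions open in each gene body in each of the 10 lists, filled circles for the lists as deposited and open squares for lists cut to equal size; each panel has its own vertical axis from 0, and vertical lines set off the day 4 lists of each origin. GPC5 runs from 35 in aNE to 123 in pNE_H as deposited and from 27 in DE to 64 in pNE_H at equal size, and AUTS2 has no such slope at equal size.

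The 3 pNE-derived lists were compared with the 3 aNE-derived lists by an exact two-sided permutation test on each gene, whose smallest possible p with 3 against 3 is 0.1, above any usual threshold. The 3 lists of an origin come from different media and are not replicates. They pair by medium across the 2 origins, and the test does not use that pairing. Its p is given only as a description of whether the origins overlap. PTPRD averaged 174 ± 46.9 regions (SD, n = 3 lists) in the pNE-derived and 115 ± 13.3 in the aNE-derived lists, a ratio of 1.51 (exact permutation p = 0.1). Without pNE_H the ratio was 1.28, and at equal size it was 1.22 (113 ± 10.4 against 92.7 ± 7.09; exact permutation p = 0.1). Separation of the origins in this direction was found in 1 of the 5, PTPRD, and in 32.7% of the 315 long genes as deposited. At equal size it was again 1 of 5, PTPRD, and 22.9% of the class.

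For GPC5 the ratio was 1.55 as deposited, 1.32 without pNE_H and 1.19 at equal size, with overlapping origins in each. TENM3 and ROBO1 both had a ratio of 1.27, which became 0.977 and 1.08 at equal size. Without pNE_H the ratio was 1.12 in TENM3 and 0.963 in ROBO1. AUTS2 had 1.08, which became 0.922 without pNE_H and 0.956 at equal size. Exact permutation p as deposited was 0.2 in GPC5 and TENM3, 0.6 in ROBO1 and 0.9 in AUTS2. None of these genes was below 0.3 at equal size. Within each medium the pNE-derived list was the higher in GPC5 and PTPRD in both settings, and in TENM3 as deposited only. As deposited AUTS2 and ROBO1 had this order in hindbrain medium alone. At equal size AUTS2 was nearly level in telencephalon medium (125 in aNE_T, 124 in pNE_T) and hindbrain medium (111 in aNE_H, 110 in pNE_H). In midbrain medium it had 125 in aNE_M and 111 in pNE_M. How many long genes share these orders was not counted. Separated origins with the pNE-derived lists above entail a higher pNE-derived list in each medium. At least 32.7% of the 315 long genes therefore had that order as deposited, and at least 22.9% at equal size. It is thus a description of GPC5, PTPRD and TENM3 and not a trait particular to them. The plating density differed with the origin, so the 2 cannot be told apart.

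A telencephalon list below the midbrain and hindbrain lists in both origins, a pattern picked after the values were seen, was found in 3 of the 5 as deposited, namely GPC5, TENM3 and PTPRD, and in 32.4% of the long genes. The same 3 genes had it at equal size, against 20.6% of the class.

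The state of the 213 pNE-only regions in the other lists was not used in choosing the genes. In hPSC on day 0, 23.5% (18.3% to 29.6%) of them were open, and in DE on day 1 31.5% (25.6% to 38.0%). On day 4, 144 of the 213 (67.6%) were open in at least 1 aNE-derived and at least 1 pNE-derived list, 22 in aNE-derived lists alone, 22 in pNE-derived lists alone and 25 in none. In percent these are 67.6, 10.3, 10.3 and 11.7, beside 68.7, 9.12, 14.1 and 8.08 in the other long genes. At equal size, where 132 regions were pNE-only, 72 (54.5%) were open in both origins, 29 (22%) in aNE-derived lists alone, 11 (8.33%) in pNE-derived lists alone and 20 (15.2%) in none. The other long genes then had 57.0%, 18.3%, 12.2% and 12.5%. By list, as deposited, aNE_T held 41.3% of them, aNE_M 65.3% and aNE_H 58.7%, while pNE_T held 42.3%, pNE_M 49.8% and pNE_H 70.4%. By definition all of these regions lacked a peak in aNE on day 2. As deposited the aNE-derived midbrain list thus held a larger share than the pNE-derived one. The telencephalon lists held about the same, and the aNE-derived hindbrain list held a smaller share. At equal size the hindbrain order was reversed, with 59.8% in aNE_H and 46.2% in pNE_H. The aNE-derived list then held the larger share in each medium. Of the 213, 31 (14.6%) were open in all 6 day 4 lists and 18 (8.45%) were open in pNE and in no other of the 10 lists, beside 14.3% and 5.64% in the other long genes. Where peaks had to cover at least 50% of a region, 7.48% were open in all 6, beside 7.92% in the other long genes.

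The pNE-only regions of the other long genes gave similar shares: 35.2% in DE, 39.2% in aNE_T, 64.6% in aNE_M, 60.6% in aNE_H, 44.8% in pNE_T, 49.7% in pNE_M and 76.2% in pNE_H. In each of these lists the value of the other genes lay inside the interval of the 5, except in pNE_H, where it fell at the upper limit (64.0% to 76.1%). At equal size, with exclusive regions redefined, the 5 genes had 39.4% in aNE_T, 64.4% in aNE_M, 59.8% in aNE_H, 34.8% in pNE_T, 40.9% in pNE_M and 46.2% in pNE_H. The other long genes then had 35.1%, 57.7%, 59.2%, 39.3%, 44.2% and 50.7% in the same order, and the pNE_H value lay inside the interval of the 5 (37.9% to 54.7%). All 3 values of the pNE-derived lists were then lower than as deposited, and pNE_H, whose list is cut the most, fell from 70.4% to 46.2%.

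Of the 55 aNE-only regions, 39 (70.9%, 57.9% to 81.2%) were open in DE, which most pNE-only regions were not. Their shares on day 4 were 34.5% in aNE_T, 34.5% in aNE_M, 25.5% in aNE_H, 29.1% in pNE_T, 25.5% in pNE_M and 38.2% in pNE_H. In the other long genes 72.6% of aNE-only regions were open in DE and 51.9% in aNE_T. The aNE_T value of the 5 genes was lower, with an interval of 23.4% to 47.7%, and it was 31.9% (23.2% to 42.0%) against 45.6% at equal size. In DE the 2 values at equal size were 35.2% (26.1% to 45.4%) in the 5 genes and 53.2% in the others.

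**Figure D4:**
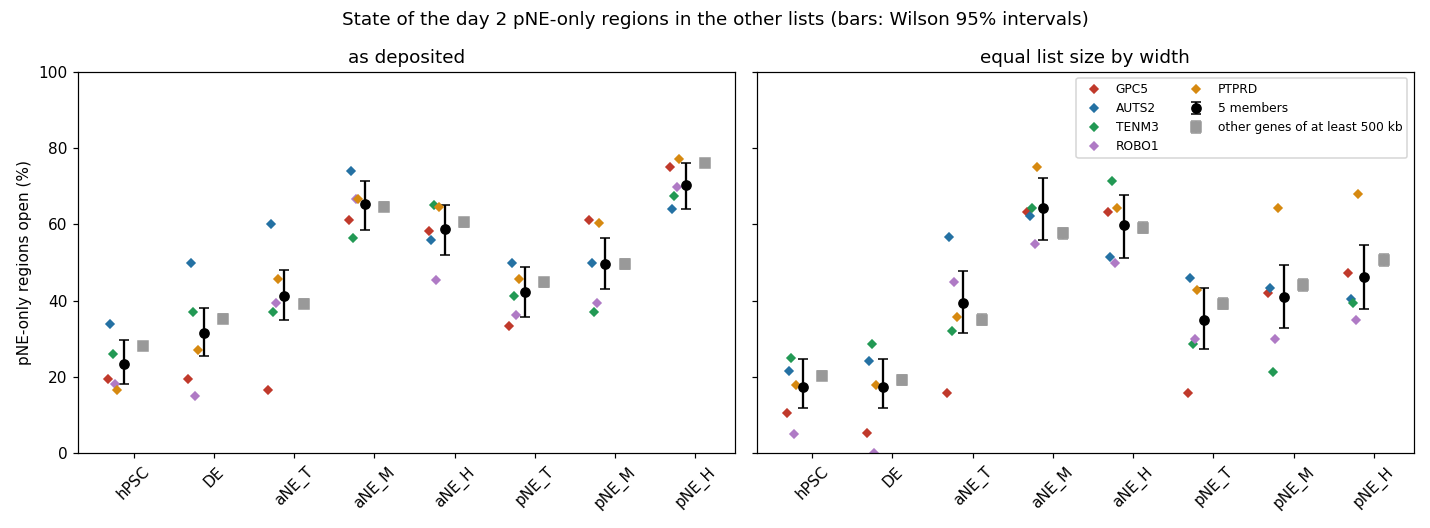
Percent of the day 2 pNE-only regions that were open in each of the other 8 lists, as deposited on the left and at equal list size on the right; black circles are the 5 genes together and grey squares the other genes of at least 500 kb, both with Wilson 95% intervals, and coloured diamonds are the single genes. GPC5 at 16.7% and AUTS2 at 60% mark the lowest and highest of the 5 in aNE_T on the left.

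Among themselves the 5 genes differed in these states. Only 6 of the 36 pNE-only regions of GPC5 were open in aNE_T (16.7%, 7.87% to 31.9%). Over the 280 long genes with at least 10 pNE-only regions the median was 39.7%, and 264 had a higher share. In pNE_T the GPC5 share was 33.3%, and in aNE_M, aNE_H, pNE_M and pNE_H it was 61.1%, 58.3%, 61.1% and 75%. None of the 36 was open in all 6 day 4 lists. At equal size the GPC5 shares were 15.8% in aNE_T and 15.8% in pNE_T, and in pNE_T 199 of 207 long genes were higher.

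AUTS2 lay at the other end, with 30 of 50 open in aNE_T (60%, 46.2% to 72.4%). Among the 280 long genes 17 were higher, and at equal size, where AUTS2 had 56.8%, 13 of 207 were higher. The intervals of GPC5 and AUTS2 in aNE_T do not overlap. As deposited AUTS2 also had the highest shares of the 5 in DE (50.0%) and aNE_M (74.0%). At equal size it had 24.3% in DE, where TENM3 had 28.6%, and 62.2% in aNE_M, where PTPRD had 75%. Of its pNE-only regions 24.0% were open in all 6 day 4 lists as deposited, 13.5% at equal size and 8% with 50% cover.

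Few of the pNE-only regions of ROBO1 had been open before: 5 of 33 (15.2%, 6.65% to 30.9%) were open in DE, and 264 of 280 long genes had a higher share. At equal size 0 of 20 were open in DE, and 188 of 207 long genes were above 0. PTPRD had 64.3% open in pNE_M at equal size, where 14 of 207 long genes were higher, and 60.4% as deposited. TENM3 lay low in the same list, with 37.0% as deposited and 21.4% at equal size, where 191 of 207 were higher. Each of these is 1 list, and genes at the edge of a distribution of this size are found in every list.

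The families and known partners of the 5 were read in the same way, from a list of 42 genes of which all were matched. Of the 37 that are not among the 5, 14 had at least 10 exclusive regions, 23 had fewer and 8 of these had none, most of them short genes. Of the 14, 7 had a pNE-only share of at least 75%, against 43.4% of all 1229 protein-coding genes with as many exclusive regions. Their median share was 74.2%, and that of all such genes was 72.4%. Most of the 14 are at least 500 kb long, however. In that length class 54.9% reached a share of 75%, and the median was 76.2%. At equal size 2 of 14 reached 75%, against 8.82% of 986 genes, and the medians were 56.4% and 53.3%. The length class then had 11.7% and a median of 60%.

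Among glypicans, GPC6, which lies next to GPC5 on chromosome 13, had 46 pNE-only and 8 aNE-only regions (85.2%, 76.3% at equal size). GPC3, on the X chromosome, went the other way with 9 pNE-only and 22 aNE-only regions (29.0%, 16.1% at equal size), and GPC4 had 5 and 5. Of the teneurins, TENM2 had 43 and 13 (76.8%), TENM4 22 and 8 (73.3%) and TENM1 9 and 5 (64.3%), beside the 78.0% of TENM3. The latrophilins, adhesion receptors that bind teneurins, had 42 and 5 in ADGRL3 (89.4%, 77.4% at equal size) and 26 and 10 in ADGRL2 (72.2%).

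ROBO2, the second long SLIT receptor of the family, had 32 pNE-only and 6 aNE-only regions (84.2%), beside 33 and 7 in ROBO1. Of the SLIT ligand genes, SLIT2 had 19 and 5 (79.2%), SLIT3 26 and 12 (68.4%) and SLIT1 10 and 5 (66.7%, but 4 and 9 or 30.8% at equal size). Of the genes listed with the LAR-type phosphatases, NTRK3, a neurotrophin receptor, had 14 and 2 (87.5%) and IL1RAPL1, a synaptic receptor, 18 and 6 (75%, but 6 and 8 or 42.9% at equal size). The other LAR-type phosphatase genes, PTPRF and PTPRS, had 5 and 9 exclusive regions, under the minimum of 10. No other gene listed with AUTS2 reached 10 exclusive regions.

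**Figure D5:**
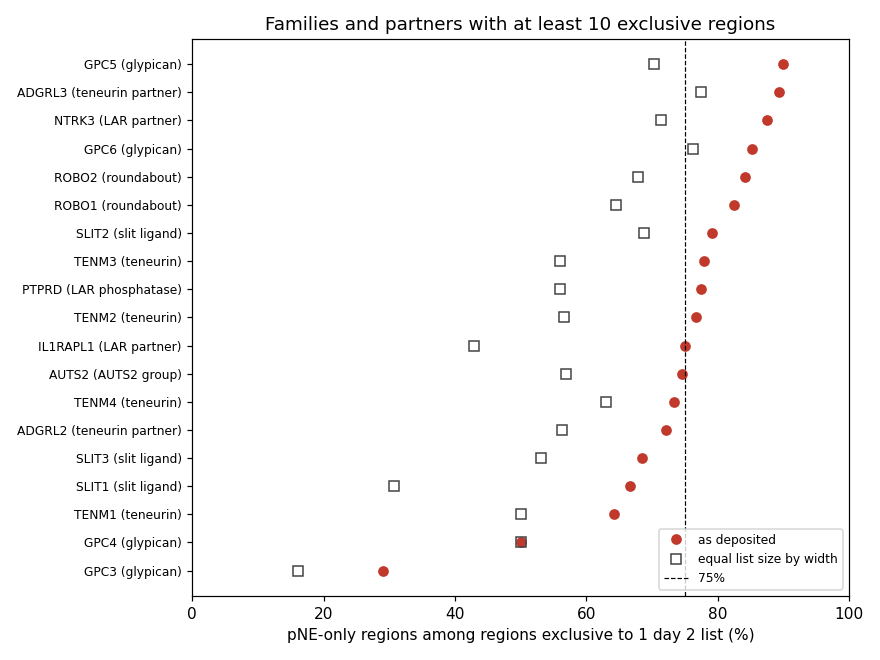
Percent of exclusive day 2 regions that were pNE-only in the 5 genes and in the 14 family and partner genes with at least 10 exclusive regions, filled circles as deposited and open squares at equal list size, with the 75% line dashed. GPC6 and ADGRL3 stay above the line at equal size, and GPC3 is the lowest in both settings.

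The profiles of the 5 genes over the 10 equal-size lists were alike only in part. Pearson's r between GPC5 and PTPRD was 0.93, between ROBO1 and PTPRD 0.76, and between AUTS2 and TENM3 -0.06. These describe 10 lists whose cells share a line and in part a lineage, and both genes of a pair are read from the same libraries. Among 3339 protein-coding genes of at least 100 kb, those most like GPC5 were NR3C2, the mineralocorticoid receptor, and GUCY1A2, a guanylate cyclase subunit (both 0.97), and ERBB4, a neuregulin receptor (0.96). Those most like PTPRD were GAS2 and FAT4 (both 0.98) and ST6GALNAC3 (0.97). AUTS2 was most like KCNH1 (0.93), TNR (0.90) and CLPB (0.90), ROBO1 most like SNAP91 (0.93), EML6 (0.91) and TMEM232 (0.89), and TENM3 most like DPY19L2 (0.94), PCCA (0.93) and KMT2E (0.92). DPY19L2 had between 1 and 4 regions open, SNAP91 between 4 and 8, and FAT4 and KMT2E between 3 and 12. Their r thus rests on few regions. All of these genes were picked as the highest of the 3339, so high values follow in part from the choice.

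The gene bodies also hold 3 annotated microRNA genes. MIR548AS in GPC5 and MIR1305 in TENM3 had no region within 1 kb. MIR3923 in ROBO1 had 1, which was open in aNE, pNE, pNE_T and pNE_H.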

How the data were processed

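OmniATAC-seq was run, per the labels, on 30 libraries in 10 groups of 3 replicates. The authors deposited 1 list of peak positions per group, with sequence name, start and end and no score or other measured value, so the measurement here is whether a list has a peak at a place. The submitters' processing notes name FastQC, Bowtie2, MACS2, bedtools, deepTools and build hg38, with neither settings nor order. How replicates were combined, and any threshold, is not given in the sources used here, and both move the number of peaks.

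Overlapping peaks (1 bp or more) of the 10 lists were joined into 493444 regions over chromosomes 1 to 22, X and Y. A region was counted in each gene whose RefSeq body on GRCh38 it overlapped. Equal list size kept the widest 167792 peaks of each list and merged them anew, giving 361982 regions. Genes of at least 500 kb with at least 10 exclusive regions served as background for the pNE-only shares. For the states of pNE-only regions in single genes the minimum was 10 pNE-only regions, met by 280 genes as deposited and 207 at equal size. The origin and telencephalon patterns were counted over all 315 long genes, and sums over the other long genes had no minimum. Shares have Wilson 95% intervals.

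The 5 genes, the gene lists and the tests were chosen with earlier results of these data known. The genes named are the 5, the 5 next in the ranking that chose them, the 3 highest and 3 lowest long genes by pNE-only share, family and partner genes with at least 10 exclusive regions, and the 3 most alike in profile to each. One gene that this rule names is not reported here. The named regions are, per gene, the 2 widest pNE-only peaks and the widest aNE-only peak over 1 kb from any gene end. Alternatives are given in the closing section. The counting was tested on simulated lists. The software was Python 3.11.15, with pandas 2.3.3 and numpy 2.4.6 for counting, scipy 1.17.1 for intervals, statsmodels 0.14.6 for adjusted p-values (not printed) and matplotlib 3.10.9 for plots.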

Additional observations from a re-analysis of the deposited data

Results flagged for a closer look

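In AUTS2 and ROBO1 the hindbrain and telencephalon lists differed in opposite directions in the 2 origins. AUTS2 had 60 more regions open in pNE_H than in pNE_T and 17 fewer in aNE_H than in aNE_T (a difference of -17). At equal list size both differences of AUTS2 were -14, so the opposition was not found there. ROBO1 had 67 more regions open in pNE_H than in pNE_T, and -5 between aNE_H and aNE_T. At equal list size these were 13 and -8, still opposite in sign. Each side is a single list, and the difference between the origins was not tested. The pNE_H list is the longest of the 10.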

How the results depend on the processing

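No paired analysis was possible because each list pools the replicates of its group, and for the same reason no replicate could be left out. At equal list size the share of the 5 genes together went from 79.5% to 59.2%, and the number of genes with a share of at least 75% from 4 to 0. This setting shortens pNE and leaves aNE whole, so a fall was largely built in. Under the other settings (50% cover of a region, the widest 50% of each list, 500 bp windows, 50 kb added to each side, nearest gene end, regions over 1 kb from gene ends) the joint share lay between 77.8% and 81.3%. Over the 5 genes and 7 settings 28 of 35 single shares stayed within the interval of the main value. The 7 that did not were all 5 at equal size, and ROBO1 (66.7%) and PTPRD (86.7%) with the widest 50% of each list. The pNE-only regions open in pNE_T went from 42.3% to 34.8% at equal size and 28.0% with 50% cover, those in pNE_M from 49.8% to 40.9% and 39.3%, and those in pNE_H from 70.4% to 46.2% at equal size. The aNE-only regions open in pNE_T went to 18.0% with 50% cover, and those in pNE_H to 20.9% at equal size. The cause was not tested. Width stands in for the missing score in these cuts, and read depth, which limits what each list can hold, is unknown.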
